A study of Mus musculus with 42 samples.

Results

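The comparison described here is that of macrophages from aged and young mice at ZT4, 4 h into the light phase of the animal house (ZT, zeitgeber time, counts hours from lights on). It rests on 6 of the 42 libraries of a study of age and daily gene expression: the 3 libraries titled Old at ZT4, from C57BL/6 mice of 18 to 20 months, and the 3 titled Young at ZT4, from C57BL/6 mice of 2 to 3 months. The libraries were taken by their titles, and no measured value entered the choice. Both groups share the strain, and the labels name no treatment, no genotype beyond the strain and no tissue of origin. The other 36 libraries, 3 for each age at ZT0, ZT8, ZT12, ZT16, ZT20 and ZT24, serve as a comparison. In the main fit they also enter the estimate of spread behind the p-values at ZT4. Each library reads the 3' ends of polyadenylated transcripts (a QuantSeq kit on total RNA), so that a value is a number of reads at a gene's end and gene length does not enter it.

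Macrophages are phagocytes that take up dead cells, microbes and lipid, secrete complement and chemokines, and in most tissues renew themselves by dividing. Like most cells they carry a circadian clock: BMAL1 (encoded by Arntl) with CLOCK binds E-boxes, DNA elements in the promoters of the Per and Cry genes, of Nr1d1 and of Dbp and Tef. The PER and CRY proteins then repress that activity, and the REV-ERB protein of Nr1d1 represses Arntl. In tissues of mice held in light and dark, transcripts of the Dbp and Nr1d1 kind climb through the light phase.

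The libraries held 6057242 to 11969990 reads in genes in Old and 8707814 to 13574542 in Young at ZT4. The macrophage label was borne out by its markers: 10 markers, Csf1r, Adgre1 and Lyz2 among them, summed to between 241577 and 292330 rescaled reads per library in Old and between 244582 and 342367 in Young. Rescaled reads are reads divided by a factor per library that puts all 42 libraries on 1 scale. Markers of B cells summed to 18253 to 28693 in Old and 15689 to 22084 in Young, and those of T cells to 232 to 875 in Old and 217 to 349 in Young. Markers of mesothelial and stromal cells summed to 65.8 to 92.7 in Old and 5.59 to 11.5 in Young, and 6 of these 14 markers (Krt19, Lrrn4, Lum, Msln, Pdgfra and Upk3b) were at 0 in all 6 libraries. In bulk RNA fewer cells of a type and less RNA per cell cannot be told apart. Nothing in the labels ties a library to its own animal, so every p-value below reflects only how far these samples spread, and that spread may be technical. As each age has a separate deposited table, an effect of age and one of a batch that follows the ages cannot be told apart.

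At ZT4, 163 of 12086 genes tested differed between the ages at an adjusted p under 0.05 (limma with Benjamini-Hochberg adjustment over all genes tested), which is 1.35% of them. Of these, 82 were higher in Old (0.678%) and 81 lower (0.670%). Scaling to total reads in place of the median of ratios called another set, 63 higher and 120 lower, of which 144 were among the 163. When only the 6 ZT4 libraries were fitted, without the spread of the other 36, 82 were higher and 92 lower. Of these, 100 were among the 163. Before adjustment, 1724 genes had a p under 0.05, where chance alone would give 604. The median log2 fold was 1.18 among the genes that rose and -1.22 among those that fell, with 52 and 54 genes changed at least 2-fold and 19 and 16 at least 4-fold. In all 163 the 3 Old libraries lay apart from the 3 Young libraries, as they did in 18.0% of all genes tested, 9.42% with Old above and 8.62% with Old below. Most calls did not hold in every fit with a library left out. Of the 163 genes, 28, 22 higher and 6 lower, kept their call whichever of the 6 libraries was left out, and all 163 kept their sign. The counts were 41 higher and 34 lower without Old replicate 1, 53 and 65 without Old replicate 2, and 38 and 42 without Old replicate 3. They were 73 and 75 without Young replicate 1, 44 and 29 without Young replicate 2, and 42 and 36 without Young replicate 3.

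Several transcripts of the clock's repressors and output factors were higher in Old at ZT4. Against 0.678% of all genes higher and 0.670% lower, 3 of 9 repressor genes rose (Per2, Per3 and Cry1) and 2 of 5 output genes rose (Tef and Dbp). No gene of these lists fell in the test, and none of the 6 tested genes of the activator loop, Arntl, Clock and Nr1d1 among them, was called by limma, with 1 at an unadjusted p under 0.05. Of the 9 repressor genes 8 had a positive log2 difference. Ciart went the other way without overlap, at few reads, with means of 1.46 in Old and 6.64 in Young. Its log2 difference of -2.09 did not pass the test (limma adjusted p = 0.24). The median log2 fold was 0.41 over the repressors, 0.43 over the output genes and 0.27 over the activator loop, against 0.00 over all genes tested.

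Per2, a period protein that represses CLOCK and BMAL1, lies at chr1:91415982-91459324 (GRCm38). It had 67.6, 46.8 and 38.9 rescaled reads in Old, against 13, 13 and 10.9 in Young. The 3 Young libraries were nearly equal and all Old libraries lay far above them, and the log2 fold was 1.93 ± 0.33 (SE, limma adjusted p = 0.000973). Per3, its relative, had 144, 155 and 130.0 rescaled reads in Old, against 51.1, 59.6 and 60.1 in Young. The ranges lay far apart, at a log2 fold of 1.31 ± 0.27 (limma adjusted p = 0.00678). Cry1, the cryptochrome that forms the repressing complex with the period proteins, had 57.0, 49.7 and 104 rescaled reads in Old, against 36, 27.9 and 36.4 in Young. One Old library stood well above the other two, and the log2 fold was 0.98 ± 0.25 (limma adjusted p = 0.0337).

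Among the output factors, Tef, a PAR-bZIP transcription factor that binds D-boxes, had 763, 582 and 631 rescaled reads in Old, against 384, 317 and 352 in Young. All Old libraries exceeded all Young ones, with a log2 fold of 0.90 ± 0.16 (limma adjusted p = 0.00130). Dbp, a second factor of this family and a direct target of CLOCK and BMAL1, had 51.0, 97.9 and 98.6 rescaled reads in Old, against 23, 24.2 and 10.9 in Young. Old replicate 1 was nearer to Young than the other two, and the log2 fold was 2.05 ± 0.45 (limma adjusted p = 0.0108). Nr1d1, which encodes the repressor REV-ERB alpha, had 146, 104 and 109.8 rescaled reads in Old, against 17.0, 15.8 and 18.5 in Young. The ranges did not overlap, but the log2 difference of 2.72 ± 0.77 did not pass the test (limma adjusted p = 0.0611). Arntl itself was at 257, 222 and 192 in Old, against 234, 243 and 188 in Young, ranges that coincide, with a log2 difference of 0.01 ± 0.23 (limma adjusted p = 0.99).

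The calls of Per2, Per3 and Tef held without any single one of the 6 libraries. Dbp missed the threshold without Old replicate 2, Old replicate 3 or Young replicate 3 (limma adjusted p of 0.0524, 0.0627 and 0.0956). Cry1 missed it without any library but Old replicate 2 (limma adjusted p of 0.0509 to 0.239). When only the 6 ZT4 libraries were fitted, Per2 and Cry1 missed it (limma adjusted p of 0.0724 and 0.321).

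The promoter stretches below, from RefSeq on GRCm38.p6, are shown because they belong to clock transcripts that rose at ZT4 and hold a clock motif. Windows ran from 250 bases before to 50 after each start, and both strands were searched for the E-box CACGTG and the D-box TTATGTAA, which stand in capitals. The Tef stretches at chr15:81802516-81802581 and chr15:81811246-81811311 (plus strand) hold 1 E-box each, the Cry1 stretch at chr10:85185079-85185144 (minus strand) holds 1, and the Per3 stretch at chr4:151044786-151044900 (minus strand) holds 2 D-boxes. No E-box letters were found in the windows of Dbp and Per3 and no D-box letters in that of Cry1, so no stretch of Dbp is shown. Per2 had no window among those available, so its promoter was not searched. Over the lists, 3 of the 6 repressor genes and 2 of the 4 output genes with a window held the E-box letters, and 1 of the 6 and 0 of the 4 the D-box letters.
Tef, first start: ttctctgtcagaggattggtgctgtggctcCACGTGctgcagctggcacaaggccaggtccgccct
Tef, second start: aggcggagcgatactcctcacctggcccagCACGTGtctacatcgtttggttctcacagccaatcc
Cry1: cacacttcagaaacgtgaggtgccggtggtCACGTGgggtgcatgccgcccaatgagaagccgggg
Per3: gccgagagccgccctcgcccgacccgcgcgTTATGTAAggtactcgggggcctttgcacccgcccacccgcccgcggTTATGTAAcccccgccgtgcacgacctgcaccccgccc
The E-box letters occurred in 7.15% of the 32851 windows of the table (8.09% of its 27025 genes) and the D-box letters in 0.938% (1.11% of genes). A match of letters is a description of the window and shows no binding.

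Over the day Per2, Per3, Tef and Dbp had their lowest Young mean at ZT4, and of the 7 times ZT4 had the largest log2 fold of Old over Young in each of these 4. Cry1 differed from them, with its largest log2 fold at ZT8 (1.49, limma adjusted p = 0.000351). Per2 averaged 51.1 ± 14.8 rescaled reads in Old and 12.3 ± 1.25 in Young at ZT4 (SD, n = 3 each), and 207 ± 14.9 in Old and 62.0 ± 31.9 in Young at ZT8. At ZT12 the ages were level, with 405 ± 39.1 in Old and 404 ± 96.9 in Young. At ZT16 Per2 was at 352 ± 33.4 in Old and 599 ± 45.7 in Young, and at ZT24 at 94.7 ± 41.1 in Old and 249 ± 23.4 in Young, so that the sign turned within the day. Tef was also higher in Old at ZT8, with 1916 ± 201 in Old and 1220 ± 173 in Young (limma adjusted p = 0.0117), and level at ZT12, with 2506 ± 339 in Old and 2529 ± 102 in Young. Dbp, higher in Old at ZT4, was at 57.7 ± 16.7 in Old and 178 ± 40.6 in Young at ZT16, which did not pass the test (limma adjusted p = 0.0656).

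**Figure D1:**
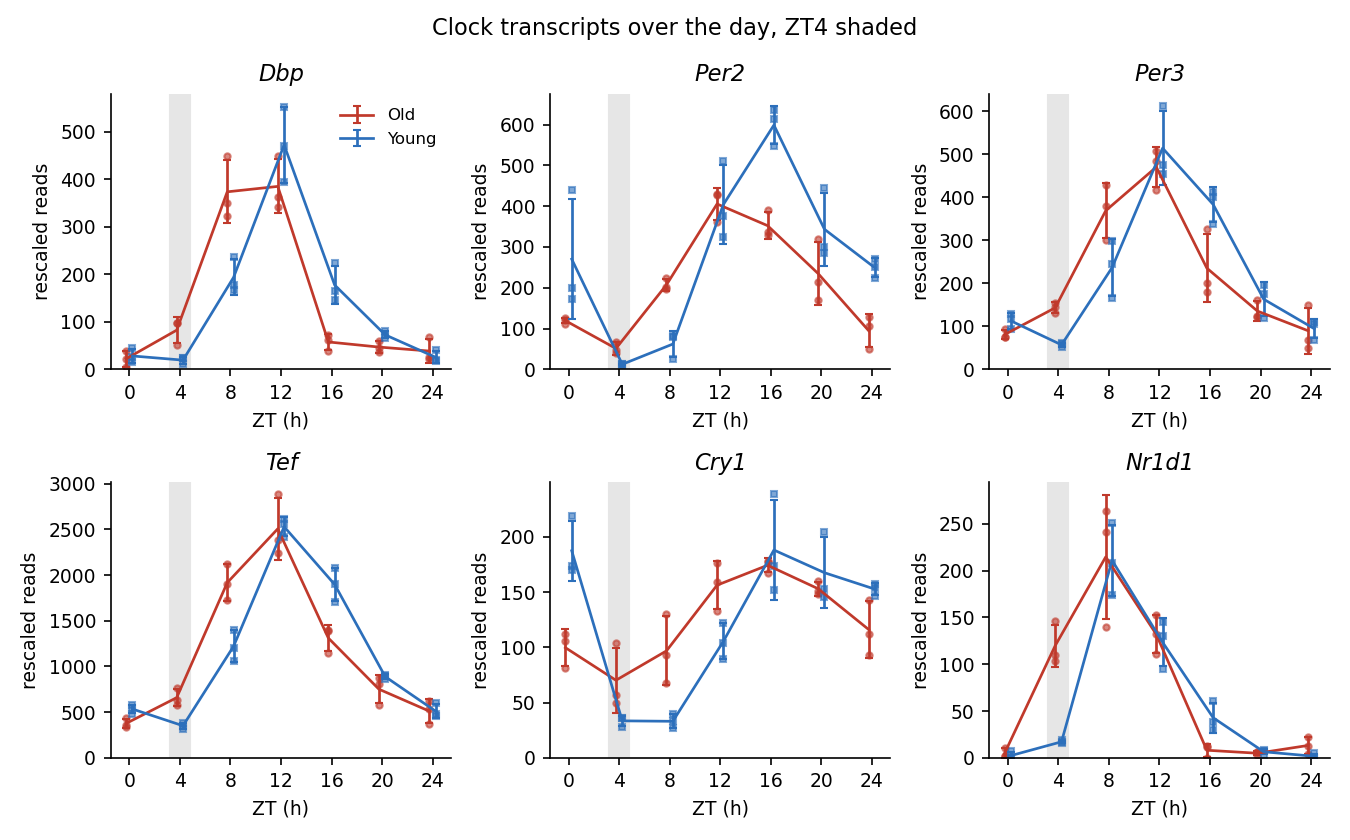
Rescaled reads (vertical axes, linear) of 6 clock transcripts at 7 times (horizontal axes, ZT in hours), Old in red and Young in blue, with points for libraries and lines for the mean with its SD (n = 3). At ZT4, shaded, all 3 Old libraries lie above all 3 Young libraries in each panel, for Per2 at 38.9 to 67.6 against 10.9 to 13.

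The test of whether the age difference at ZT4 differed from the mean age difference over the other 6 times found 5 genes (0.0414% of those tested, limma with Benjamini-Hochberg adjustment). The 4 with a higher difference at ZT4 (0.0331%) are these clock genes, and 1 was lower (0.00827%). The difference between the log2 folds was 2.26 ± 0.35 for Per2 (adjusted p = 0.00175), 1.02 ± 0.17 for Tef (0.00353), 1.5 ± 0.29 for Per3 (0.0219) and 2.33 ± 0.48 for Dbp (0.0499), all from limma. The fifth was Msh6, a subunit of the mismatch repair complex that scans newly copied DNA, at -1.21 ± 0.23 (limma adjusted p = 0.0168). Msh6, at chr17:87975062-87990892, had 144, 93.5 and 125 rescaled reads in Old at ZT4, against 320.3, 265 and 244 in Young. No Old library reached the lowest Young one, while over the other 6 times the log2 difference was 0.01 (limma adjusted p = 0.97). Just outside the threshold were Ppil1, a splicing-associated peptidyl-prolyl isomerase, at -1.22, and Gbp8, a guanylate-binding protein, at -3.78, both at a limma adjusted p of 0.0587. At an unadjusted p under 0.05 this test held 1008 genes. Of the 5 genes, Per2 and Tef kept the call whichever of the 6 libraries was left out and Msh6 lost it once, without Old replicate 2 (limma adjusted p = 0.177), whereas Per3 kept it in 1 and Dbp in 2 of the 6 fits. Over all 18 alternatives Per3 kept the call in 10, losing it also, among others, with array weights and no filter (limma adjusted p of 0.0867 and 0.0592). Dbp kept it in 8, losing it also with TMM scaling, scaling to total reads, a pseudocount of 0.5, a filter of 1, no filter and array weights (0.0505 to 0.169, limma). The number of genes called was 42 without Young replicate 1, 2 without Old replicate 2 and 3 without Young replicate 3.

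Genes of DNA replication and of cell division were lower in Old at ZT4. All 27 genes of a DNA replication list had a negative log2 fold, 8 of them fell in the test (0.670% over all genes) and 24 had no overlap between the ages, with Old below in each (8.62% over all genes). All 23 tested genes of a mitosis list were negative too, 2 fell (0.670% over all genes) and 21 had no overlap, with Old below (8.62% over all genes). The median log2 fold was -1.25 over the replication genes and -1.56 over the mitosis genes, against 0.00 over all genes tested. The summed level of the replication list was 5652, 7273 and 5919.8 rescaled reads in Old, against 14682, 14829 and 10623 in Young, and that of the mitosis list 2109, 5196 and 3567 in Old, against 8152, 15377 and 7815 in Young.

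The MCM proteins form the ring-shaped helicase that unwinds DNA at origins of replication. Mcm5 had 219, 238 and 247 rescaled reads in Old, against 848, 755 and 529 in Young. The Old libraries were within a narrow range at less than 1 in 2 of the lowest Young one, with a log2 fold of -1.57 ± 0.33 (limma adjusted p = 0.00729). Mcm3 had 559.9, 671 and 541 in Old, against 1596, 1253 and 1151 in Young, and Mcm6 had 570.4, 619.7 and 623 in Old, against 1426, 1185 and 1061 in Young. Both fell without overlap, with log2 folds of -1.17 ± 0.24 and -1.01 ± 0.22 (limma adjusted p of 0.00687 and 0.0102). Also lower were Pola1, the catalytic subunit of the priming polymerase alpha (-1.03 ± 0.24), Gins1 and Gins2 of the GINS complex that joins the helicase (-1.91 ± 0.45 and -1.57), Lig1, the ligase that seals Okazaki fragments (-1.24), and Ccne1, the cyclin that opens S phase (-1.64). Their limma adjusted p-values were between 0.0154 and 0.0391, and Gins2, Lig1 and Ccne1 are named after their values were seen.

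Of the mitosis genes, Cdca8, which encodes the borealin subunit of the chromosomal passenger complex, had 97.6, 164 and 185 rescaled reads in Old, against 435, 705 and 405 in Young. Its ranges were well apart, with a log2 fold of -1.79 ± 0.36 (limma adjusted p = 0.00634). Hmmr, a hyaluronan-binding protein of the mitotic spindle, had 12.0, 42.4 and 7.47 in Old, against 95.1, 143 and 103 in Young, a log2 fold of -2.75 ± 0.62 (limma adjusted p = 0.0143). Birc5, the survivin subunit of the same complex as Cdca8, had 146, 547 and 303 in Old and 888, 1658 and 853 in Young. Its libraries spread widely within each age, Old replicate 2 being the highest of its group and Young replicate 2 of its own, and the log2 difference of -1.90 ± 0.52 did not pass the test (limma adjusted p = 0.0543).

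The direction of both lists held in every alternative scaling and with each library left out, but the number of calls did not. When only the 6 ZT4 libraries were fitted, 9 replication and 13 mitosis genes were called lower, and with array weights 13 and 7. Without Old replicate 1, 2 replication genes and no mitosis gene were called lower, and without Old replicate 3, 3 and 1. Without Young replicate 1 they were 4 and 2, and without Young replicate 2, 3 and 0. Without Old replicate 2 they were 8 and 4. Over all 12081 to 12122 genes tested, the same fits called 92, 105, 34, 42, 75, 29 and 65 lower, in the order given here. Mcm3 and Mcm5 kept their call throughout, Mcm6 missed it without Old replicate 1 or Young replicate 1 (limma adjusted p of 0.0506 and 0.0509), Pola1 without Old replicate 1, Old replicate 3 or Young replicate 2 (0.143, 0.0895 and 0.0794), and Gins1 without Old replicates 1 or 3 or Young replicates 1 or 2 (0.067 to 0.119, limma). Cdca8 missed it without Old replicate 1 or Young replicate 2 (0.0592 and 0.0607, limma) and Hmmr without Old replicate 1, Old replicate 3 or Young replicate 2 (0.0685 to 0.109, limma).

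**Figure D2:**
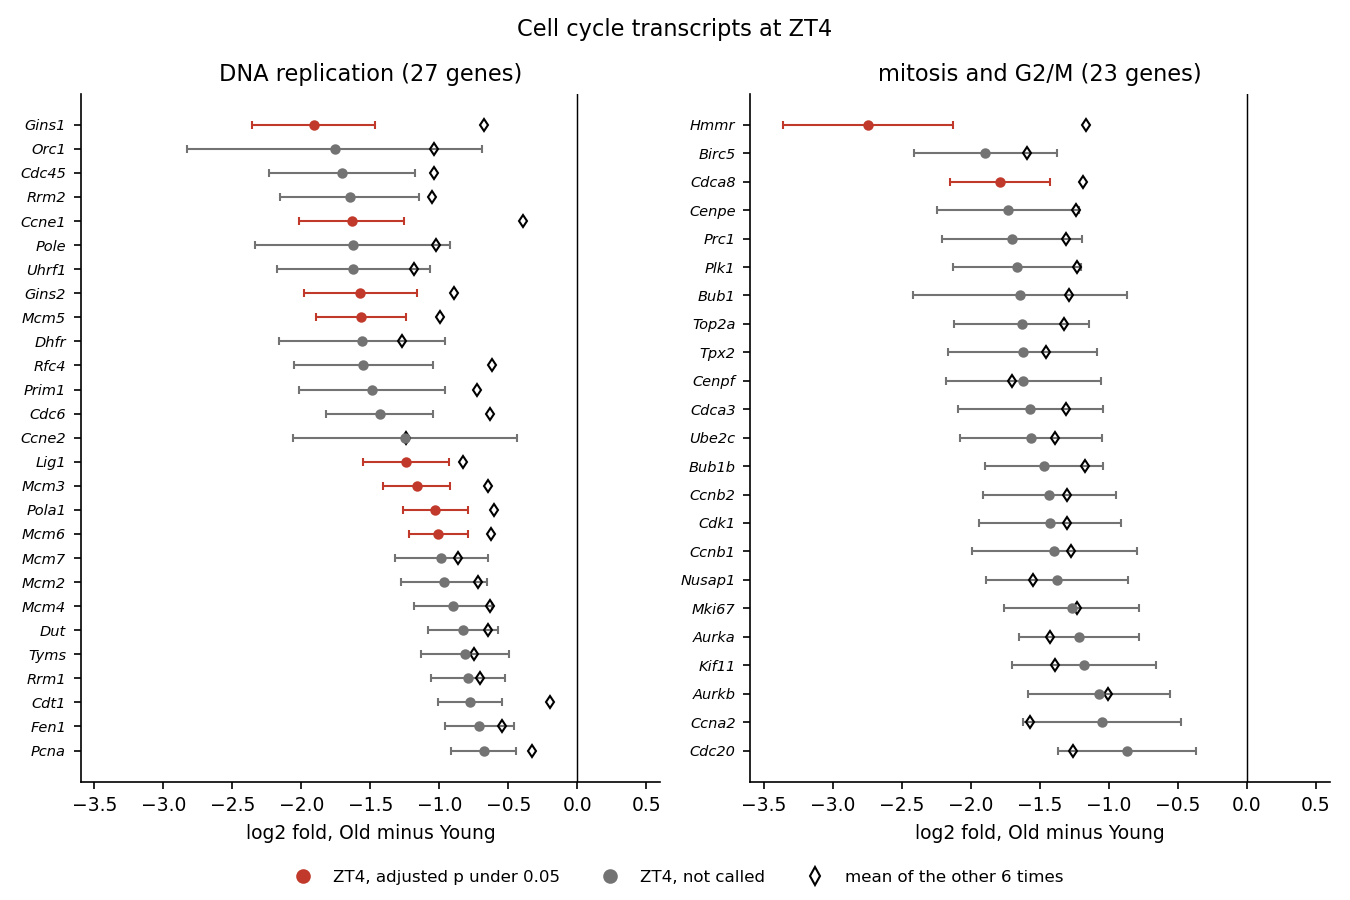
Log2 fold between Old and Young (horizontal axes) of the tested DNA replication genes (left) and mitosis genes (right) at ZT4, as points with their SE, red where the limma adjusted p was under 0.05, with open diamonds for the mean over the other 6 times. Every ZT4 point lies left of 0, and the medians are -1.25 and -1.56.

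At the other times the same lists were negative as well. The median log2 fold of the replication list was -0.55 at ZT0, -1.25 at ZT4, -1.01 at ZT8, -0.48 at ZT12, -0.59 at ZT16, -0.78 at ZT20 and -1.03 at ZT24, and that of the mitosis list lay between -1.03 at ZT16 and -1.81 at ZT8. No gene of either list passed the test of a difference between ZT4 and the other times. For the replication list, promoter stretches of Mcm5, at chr8:75109330-75109397 (plus strand), and Mcm6, at chr1:128359715-128359845 (minus strand), are given from RefSeq on GRCm38.p6, as S phase genes are known targets of E2F factors. Capitals mark the E2F letters TTTGGCGC on either strand, a motif added after the values had been seen.
Mcm5: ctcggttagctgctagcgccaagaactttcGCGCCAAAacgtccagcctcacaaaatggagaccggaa
Mcm6: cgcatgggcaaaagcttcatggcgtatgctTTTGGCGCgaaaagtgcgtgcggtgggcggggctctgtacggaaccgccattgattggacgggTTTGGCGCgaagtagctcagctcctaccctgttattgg
These letters were found in 5 of the 21 replication genes with a window, against 0.585% of all 27025 genes of the table, and the second E2F form searched, TTTCCCGC, in 3 of the 21, against 1.24% of genes.

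A few genes of secreted proteins were higher in Old at ZT4, while most members of the lists they belong to were not called. Cxcl13, the chemokine that draws B cells, lies at chr5:95956951-95961068 and had 16799.5, 20534 and 15252 rescaled reads in Old, against 2809, 1642 and 1849 in Young. Every Old library held over 5 times the reads of any Young one, with a log2 fold of 3.09 ± 0.27 and the lowest p of all genes (limma adjusted p = 8.27e-10). C3, the protein on which all complement pathways converge, had 2540.0, 3251 and 3074 in Old, against 669.7, 1063 and 949 in Young, also without overlap, at a log2 fold of 1.74 ± 0.22 (limma adjusted p = 6.95e-06). Slpi, a secreted inhibitor of leukocyte proteases and among the most abundant transcripts of these cells, had 139587, 179506 and 160250 in Old, against 74031, 48980.5 and 51959 in Young. The lowest Old library was at almost 2 times the highest Young one, and the log2 fold was 1.47 ± 0.30 (limma adjusted p = 0.00717).

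In the complement, acute phase and chemokine lists 11.1%, 22.2% and 13.3% of the tested members rose, against 0.678% of all genes. Of 18 complement genes tested, C3 and Cfb, the protease component of the alternative pathway, rose (log2 fold 1.24 ± 0.33 for Cfb, limma adjusted p = 0.0479) and none fell. Of 9 acute phase genes Saa3 and Lrg1 rose and none fell, with a median log2 fold of 1.37. Of the 9, 8 had a positive log2 difference and 5 lay above without overlap (9.42% over all genes). In limma 6 of the 9 had an unadjusted p under 0.05. Saa3, a serum amyloid A that macrophages make, had 73609, 117260 and 85251 rescaled reads in Old, against 25943, 18939 and 22080.3 in Young, a log2 fold of 2.03 ± 0.46 (limma adjusted p = 0.0154). Its near copies Saa1 and Saa2 could share reads with it. Hp, which encodes haptoglobin, had 1198, 978 and 799 in Old, against 436, 294 and 486 in Young. Its ranges were apart, but its log2 difference of 1.3 ± 0.38 did not pass the test (limma adjusted p = 0.0778). Of 15 chemokine genes 2 rose, Cxcl13 and Ccl5, a chemokine of T cells and macrophages, while 8 had a negative log2 difference and the median was -0.07. Ccl5 had 221, 225 and 543 in Old, against 52.1, 92.2 and 78.6 in Young, at a log2 fold of 2.04 ± 0.53 (limma adjusted p = 0.0375). Old replicate 3, its highest library, also had the highest sum of T cell markers, 875 against 276 and 232 in the other Old libraries, and the part of these cells in the result was not tested.

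Also higher were Egln3, the oxygen-dependent prolyl hydroxylase that marks HIF for decay, at 629, 487 and 539 rescaled reads in Old, against 258, 154 and 137 in Young (log2 fold 1.64 ± 0.26, limma adjusted p = 0.000337). Ptges, the synthase of prostaglandin E2, had 360.3, 403 and 217 in Old, against 102, 82.0 and 81.8 in Young (log2 fold 1.83 ± 0.32, limma adjusted p = 0.00130). In both genes each Old library lay well above each Young one. Cxcl13, C3, Egln3 and Ptges kept their call without any single library. Slpi missed it without Young replicate 2 (limma adjusted p = 0.051) and Saa3 without Old replicate 2, Young replicate 2 or Young replicate 3 (0.0726, 0.0685 and 0.0556, limma). Lrg1 missed it without any library but Young replicate 1 (0.0568 to 0.171, limma), Cfb without any but Young replicate 3 (0.0583 to 0.245, limma) and with TMM scaling, total scaling, edgeR or DESeq2, and Ccl5 without any 1 of the 6 (0.0534 to 0.205, limma).

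**Figure D3:**
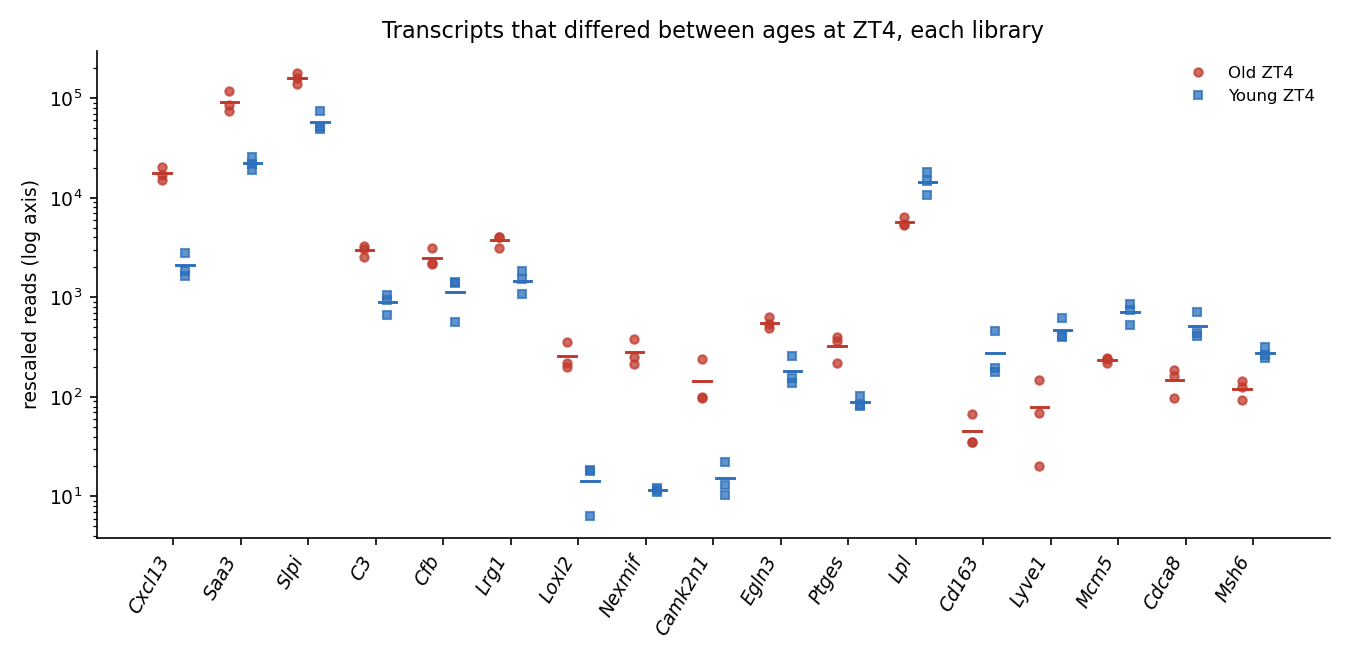
Rescaled reads (vertical axis, logarithmic) of 17 transcripts called at ZT4 in the 3 Old libraries (red circles) and the 3 Young libraries (blue squares), with the mean as a bar. In no gene do the ages overlap, from Loxl2 at 202 to 353 in Old and 6.39 to 18.6 in Young to Lyve1 at 20.5 to 149 in Old and 399 to 616 in Young.

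Among the largest rises were genes with few reads in Young. Nexmif, a nuclear protein known from neurons, had 213, 249.9 and 380.4 rescaled reads in Old, against 11.0, 12.1 and 11.5 in Young, a log2 fold of 4.45 ± 0.80 (limma adjusted p = 0.00173). Loxl2, a lysyl oxidase that crosslinks collagen, had 353, 219 and 202 in Old, against 18.0, 18.6 and 6.39 in Young, a log2 fold of 4.16 ± 0.56 (limma adjusted p = 1.85e-05). Camk2n1, an inhibitor of the kinase CaMKII, had 101, 96.5 and 239 in Old, against 13, 10.2 and 22.4 in Young (3.11 ± 0.47, limma adjusted p = 0.000168). In each of these the lowest Old library was several times the highest Young one, and none lost its call when a library was left out. Of 12 tested genes of extracellular matrix and its remodelling 4 rose (0.678% over all genes) and none fell: Loxl2, Dcn, Adamtsl5 and Timp2. Adamtsl5 lost its call in 4 of the 6 fits, without Old replicate 3 or any 1 of the Young libraries (0.0607 to 0.158, limma). Timp2, an inhibitor of matrix metalloproteinases, had 29373, 28038 and 26624 in Old, against 20633, 19246 and 17866 in Young (0.54 ± 0.13, limma adjusted p = 0.0236). Its call was lost without any library but Young replicate 1 (0.0557 to 0.117, limma). Dcn, the collagen-binding proteoglycan decorin, had 51.0, 40.9 and 66.5 in Old, against 4.00, 2.79 and 0 in Young (4.31 ± 0.95, limma adjusted p = 0.0116), and lost its call without Old replicate 3 or Young replicate 3 (0.058 and 0.0969, limma). Dcn is also 1 of the 14 stromal markers, makes up most of their sum in Old, and the part of stromal cells in its rise was not tested.

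Among genes of lipid and iron handling the changes went both ways. Lpl, the lipase that frees fatty acids from lipoproteins, fell, with 5373, 6398 and 5504 rescaled reads in Old, against 18174, 10708 and 14731 in Young. The highest Old library was well below the lowest Young one, and the log2 fold was -1.31 ± 0.28 (limma adjusted p = 0.00956). Abca1, the transporter that exports cholesterol, rose, with 1656, 1672 and 1666 in Old, against 1153, 882 and 659.7 in Young, the Old libraries being almost equal (0.93 ± 0.18, limma adjusted p = 0.00463). Scd2, a desaturase of fatty acids, also rose (1.20 ± 0.22, limma adjusted p = 0.00264), as did Cd63, a tetraspanin of late endosomes (1.39 ± 0.26, limma adjusted p = 0.00221). Over the 25 tested genes of lipid uptake, storage and efflux, 1 rose (0.678% over all genes) and 2 fell (0.670% over all genes), with a median log2 fold of 0.07. Fth1, the heavy chain of the iron store ferritin, rose, with 15596, 16861 and 13682 in Old, against 9837, 9651 and 9426 in Young (0.67 ± 0.13, limma adjusted p = 0.00255), and its many processed copies could share its reads. Cd163, the scavenger receptor for haemoglobin, fell, with 67.6, 35.1 and 35.1 in Old, against 194, 178 and 456 in Young (-2.49 ± 0.50, limma adjusted p = 0.00608). Lpl missed the threshold without Young replicate 1 (limma adjusted p = 0.0538), and Abca1 and Cd163 without Young replicate 3 (0.0628 and 0.0633, limma).

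The list of resident genes and that of monocyte-derived and small macrophage genes, both drawn up for peritoneal macrophages, leaned in opposite directions. Of 25 resident genes 4 rose (0.678% over all genes): Cxcl13, Saa3, Lrg1 and Vmn2r26, the last named after its values were seen. Cxcl13, Saa3 and Lrg1 were also counted in the chemokine or acute phase lists. In the resident list 1 gene fell (0.670% over all genes), Apoc1, a small apolipoprotein, at a log2 fold of -3.42 ± 0.81. Of the 25, 14 lay above without overlap (9.42% over all genes), and the median log2 fold was 0.38. Gata6, the transcription factor that specifies resident peritoneal macrophages, was at 1443, 1774 and 1521 rescaled reads in Old and 1328, 1250.1 and 1023 in Young (0.40 ± 0.21, limma adjusted p = 0.37). Of 20 monocyte-derived and small macrophage genes 1 fell (0.670% over all genes), 8 lay below without overlap (8.62% over all genes) and the median was -0.31. The gene that fell was Lyve1, a hyaluronan receptor, at 69.1, 20.5 and 149 in Old, against 407, 399 and 616 in Young (-2.93 ± 0.63, limma adjusted p = 0.0105). Mrc1, the mannose receptor, was at 694, 637 and 656 in Old, against 978, 969.7 and 1195 in Young, apart but not past the test (-0.65 ± 0.32, limma adjusted p = 0.35). Lyve1 lost its call without Old replicate 2 or Young replicate 3 (0.107 and 0.0601, limma), and Apoc1 without Old replicate 3, Young replicate 1 or Young replicate 3 (0.0606 to 0.235, limma).

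Genes induced by interferon gamma were uneven among the Young libraries at ZT4. The 17 tested genes are mostly guanylate-binding proteins and immunity-related GTPases that attack microbes inside cells. None was called by limma in either direction, with 6 at an unadjusted p under 0.05. With edgeR 1 was called lower and with DESeq2 2, where 78 and 136 of all 12086 genes were lower. Of the 17, 15 had a negative log2 difference and the median was -0.69. Gbp7 had 1379.6, 1309.6 and 1060.4 rescaled reads in Old, against 1262, 2528 and 4659 in Young, and Gbp8 had 10.5, 26.3 and 16.4 in Old, against 14, 137 and 148 in Young. Iigp1, chosen here after its values were seen, had 764, 554 and 503 in Old, against 66.1, 1625 and 5149.8 in Young. In these 3 genes Old was more even, while Young replicate 1 lay within or below the range of Old and Young replicate 3 was the highest. The sum of the list was 13289.8, 11538 and 10460.2 in Old, against 6028, 20007.5 and 38079 in Young, where the last is the highest of all 42 libraries and the 18 Young libraries of the other times lay between 5079.6 and 9627. Close copies within these families could share reads.

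Over the other 6 times the same list leaned the other way, with 11 of 17 genes called higher in Old (10.9% over all genes) and a median log2 fold of 0.78. At ZT4 the result turned on single libraries. Without Young replicate 1, 6 of the genes were lower in Old at ZT4 with a median of -1.63, where 75 of all 12099 genes tested were lower. In that fit 42 of the 12099 genes differed between ZT4 and the other times, and 11 of these belonged to this list. Without Young replicate 3 none was called and the median was -0.01. Of 42 type I interferon-stimulated genes none was called at ZT4 by limma, edgeR or DESeq2 (6 at an unadjusted p under 0.05 in limma) and 18 were called higher over the other times. Of 19 genes of MHC class I and the immunoproteasome none was called at ZT4 by any of the 3 tools (5 at an unadjusted p under 0.05) and 11 were called higher over the other times.

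**Figure D4:**
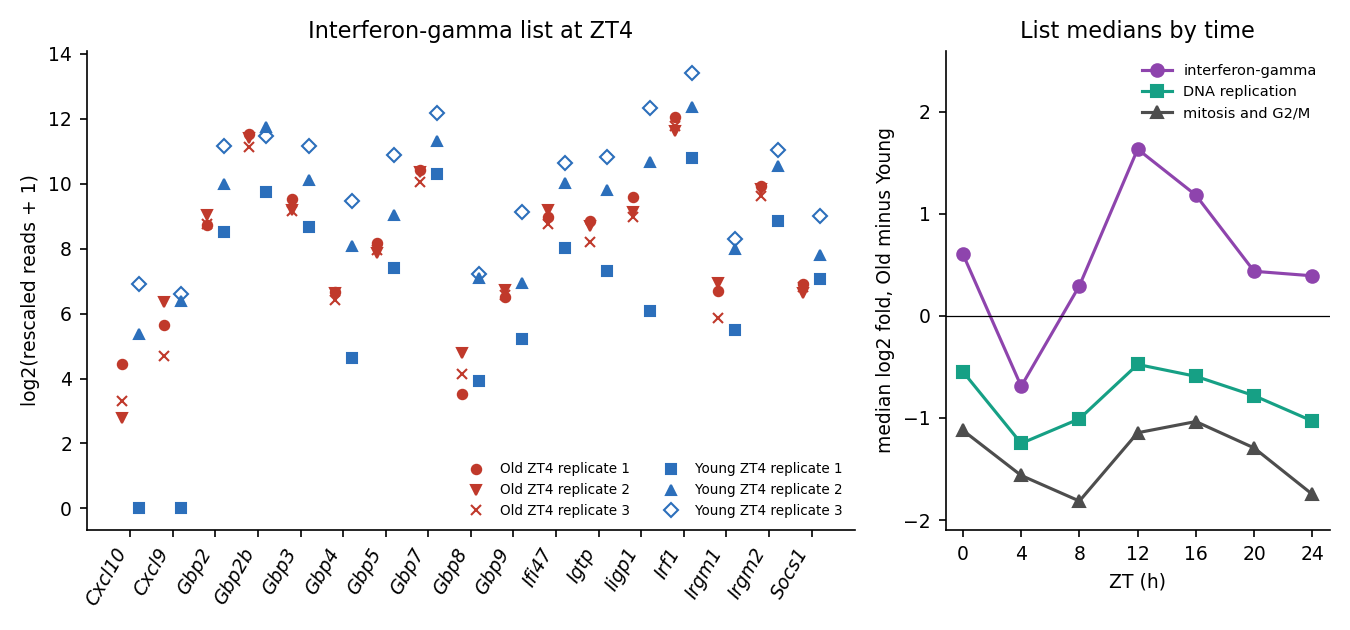
Left, log2(rescaled reads + 1) of the 17 tested interferon-gamma genes in each ZT4 library, Old in red and Young in blue, where Young replicate 1 is low and Young replicate 3 high in most genes. Right, the median log2 fold of 3 gene lists at each ZT in hours, which for the interferon-gamma list is -0.69 at ZT4 and 1.64 at ZT12.

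Over all genes, what changed at ZT4 mostly changed in the same direction at the other times. The libraries of those times are not part of the ZT4 log2 fold, apart from the joint scaling. Both tests share each gene's estimate of spread, however, so being called in both is not independent agreement. Over the other 6 times together 2614 genes were called (21.6%, limma). Of the 163 genes called at ZT4, 152 had the same sign there (93.3%, against 63.1% of all genes tested) and 124 were called the same way (76.1%), 62 among the genes that rose and 62 among those that fell. None was called in the opposite direction. The log2 fold was larger in size at ZT4 than over the other times in 72 of the 82 genes that rose and 75 of the 81 that fell, as choosing genes by their ZT4 value favours. At the single other times 96 genes were called at ZT0, 485 at ZT8, 251 at ZT12, 128 at ZT16, 200 at ZT20 and 253 at ZT24, and 35 of the genes that rose and 44 of those that fell at ZT4 were called at none of these.

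**Figure D5:**
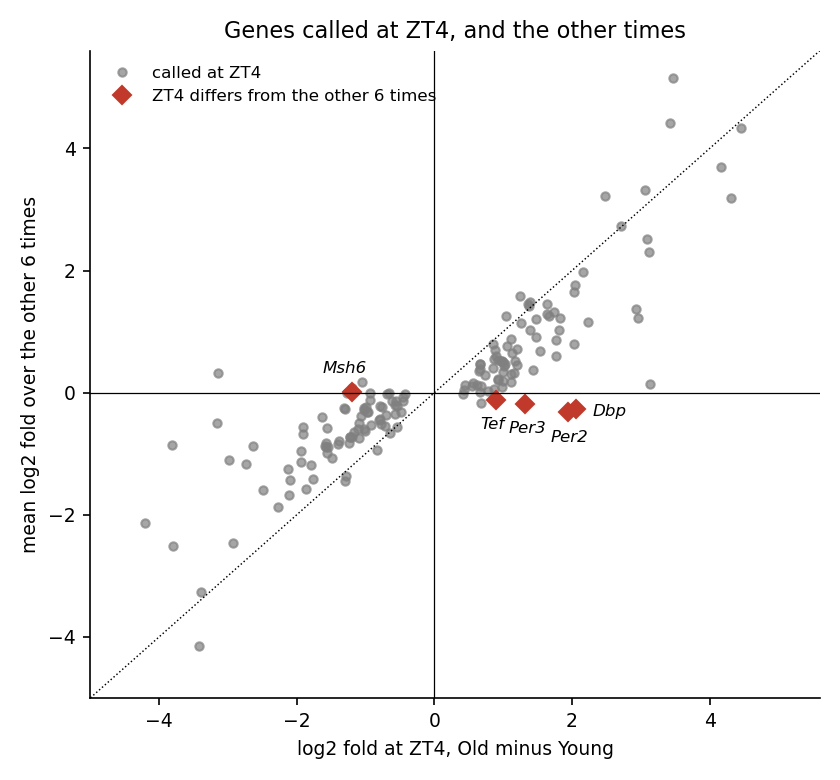
Log2 fold between Old and Young at ZT4 (horizontal axis) and its mean over the other 6 times (vertical axis) for the 163 genes called at ZT4, with the dotted line where both are equal. Red diamonds are the 5 genes whose age difference at ZT4 differed from that at the other times, all near 0 on the vertical axis, with Per2 at 1.93 and -0.32.

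Of 41 gene lists looked at, 19 had no member called at ZT4 by limma (1.35% of all genes tested were called). Heat shock chaperones (0 of 19 called, median log2 fold -0.19), endoplasmic reticulum folding (0 of 23, -0.04), cytokines (0 of 14, 0.01), the inflammasome (0 of 13, 0.03), Toll-like receptors and NF-kB (0 of 27, 0.08), MHC class II (0 of 14, 0.04), lysosomal hydrolases (0 of 29, 0.04) and cytosolic ribosomal proteins (0 of 42, -0.08) were among them, with 0 to 5 members of each at an unadjusted p under 0.05. In the proteasome list 1 of 31 genes fell (0.670% over all genes), Psmc3, an ATPase of the regulatory particle, at a log2 fold of -0.45 ± 0.12 (limma adjusted p = 0.0492). Its call was lost without any library but Young replicate 1 (0.0779 to 0.261, limma). In that list 29 of 31 were negative, with a median of -0.28 at ZT4 and -0.02 over the other times. Its sum was 32710, 32061 and 31128 rescaled reads in Old, against 34865, 35389 and 45124.5 in Young, so that Young replicate 3 stood well above the rest. None of 10 macrophage markers and none of 12 B cell markers was called by limma, and 0 of either had an unadjusted p under 0.05.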

How the data were processed

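QuantSeq 3' end libraries were made from macrophage RNA, per the labels' protocols. Per the submitters' processing notes, STAR, DESeq2 and mm10 were used. Which counter and annotation served, and whether strand was used, is not given in the sources used here, so overlapping genes cannot be told apart. The deposited values are a normalized signal, which the authors gave in 1 table for each age. All values were whole multiples of a step per library, so whole reads were recovered (100% of values within 0.001 of a whole number), and a single median-of-ratios scaling was then applied over the 42 libraries. Implied size factors were 0.592 to 1.84. Errors cover the spread between libraries. The labels name no molecular identifiers, so reads may include PCR copies of 1 molecule.

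Each table held 47643 genes, of which 47224 matched a symbol by Ensembl identifier (GENCODE M21, GRCm38). Values were put on the scale log2(rescaled reads + 1), which understates changes of genes with few reads, and a mean of 10 or more was required of a gene. Limma-trend (limma 3.58.1, R 4.3.3) was fitted with 14 group means over the 42 libraries, and p-values were adjusted by Benjamini-Hochberg over all 12086 genes. The tests were run on simulated data first. On whole reads, edgeR 4.0.16 with its quasi-likelihood test called 78 genes higher and 78 lower at ZT4, while DESeq2 1.42.0 called 132 and 136. Other scalings, pseudocounts, filters and left-out libraries were alternatives. No 2 libraries of a ZT4 group matched within counting error (chi-square per gene 10.9 or more). Young replicate 3 stood at 49.7 from its nearest replicate by this measure, against 15.7 for Young replicates 1 and 2. Its root mean square log2 distance from those replicates, 0.57, ranked 30 of the 42 libraries, where 1 is the largest.

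The comparison and the gene lists were chosen with earlier results of these data known, and lists got no test. Named genes are the 12 largest rises and falls at ZT4 with no overlap and a mean of at least 50 in the higher group, the 6 lowest p-values and the 5 highest levels in each direction, all measured clock genes, the 4 members with the lowest p in every list, and the 12 lowest p-values of ZT4 against the other times. The text gives some of them. Any other gene was named after its value was seen. Promoters are RefSeq windows (GRCm38.p6).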

Additional observations from a re-analysis of the deposited data

Results flagged for a closer look

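In 5 genes the age difference at ZT4 differed from the mean age difference over the other 6 times (limma, Benjamini-Hochberg adjustment over all genes tested). In Per2 the log2 fold was 1.93 at ZT4 and -0.32 over the other times, a difference of 2.26. In Tef it was 0.90 at ZT4 and -0.12 over the other times, a difference of 1.02. In Per3 it was 1.31 at ZT4 and -0.19 over the other times, a difference of 1.5. In Dbp it was 2.05 at ZT4 and -0.28 over the other times, a difference of 2.33. In Msh6 it was -1.20 at ZT4 and 0.01 over the other times, a difference of -1.21. In all 4 clock genes the mean over the other times averages log2 differences of unlike sign. They were 1.90 at ZT8 and -1.49 at ZT24 for Per2, 0.66 at ZT8 and -0.53 at ZT16 for Tef, 0.66 and -0.75 for Per3, and 0.95 and -1.63 for Dbp.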

How the results depend on the processing

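No gene called at ZT4 changed sign under any of the alternatives run on it. Of 4880 pairs of a named gene and an alternative, 17 changed sign, in 6 genes that were not called (Arntl, Csnk1d, Csnk1e, Ncoa4, S100a9 and Trbc1). Of the 4880 pairs 4550 kept the side of the threshold, 244 lost the call and 86 gained one. Only called genes could lose a call, and most named genes were not called. The share of calls lost is therefore larger than 244 of 4880. Against 82 genes higher and 81 lower, DESeq2 called 132 and 136, a threshold of 0.01 gave 27 and 14, one of 0.10 gave 165 and 168, and no filter gave 63 and 50. Leaving out 1 library gave 38 to 73 higher and 29 to 75 lower. Scaling to total reads moved the median of all genes by -0.07 on the log2 scale and gave 63 higher and 120 lower (34.4% higher). The 5 genes whose ZT4 difference differed from the other times became 22 with DESeq2, 8 with edgeR, 8 with a pseudocount of 5, 3 with array weights, 2 at a threshold of 0.01, and 2 to 42 without 1 library. With the replicate block the counts were 67 higher, 58 lower and 4, with Msh6 and Per3 no longer among the last (adjusted p of 0.0567 and 0.142). Same-numbered libraries at ZT4 did not deviate together (correlations of -0.02, 0.04 and 0.00), and 1 of the 3 pairs was highest with its own number. No pairing by number was seen, though 3 pairs cannot exclude a weak one. The cause of these shifts was not tested. A library left out leaves 2 against 3, with fewer degrees of freedom. Depth limits the low genes, as differences of a few reads at values near 0 were not detectable.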

Other observations

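Beyond the lists, other genes that copy, mark or fold DNA were among those lower in Old at ZT4. These were chosen after their values were seen. Timeless and Tipin, which together protect stalled replication forks, had log2 folds of -1.59 ± 0.38 and -1.02 ± 0.25 (limma adjusted p of 0.0228 and 0.0237). Timeless had 46.5, 54.1 and 32.1 rescaled reads in Old, against 140.1, 126 and 132 in Young. Rpa2, a subunit of the protein that coats single-stranded DNA, had 398, 335 and 356 in Old, against 662, 814 and 816 in Young (-1.07 ± 0.23, limma adjusted p = 0.0104). Dnmt1, the methyltransferase that copies DNA methylation at the fork, had 731, 710.3 and 631 in Old, against 1446, 1265 and 965 in Young (-0.81 ± 0.19, limma adjusted p = 0.0208). Nasp, a histone chaperone, had 407, 466 and 434 in Old, against 735, 772 and 748 in Young (-0.79 ± 0.18, limma adjusted p = 0.0154), and Smc2, a condensin subunit, had 374, 642 and 477 in Old, against 986, 1399 and 1078 in Young (-1.23 ± 0.28, limma adjusted p = 0.0160). In each of these 6 genes the ages did not overlap, and the log2 difference over the other 6 times was negative too, between -0.25 for Tipin and -0.88 for Timeless.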
